A study of Mus musculus with 4 samples.

Results

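The interferon regulatory factors (IRFs) are transcription factors that share a DNA-binding domain, and the account below covers 8 of their genes, Irf1, Irf2, Irf3, Irf4, Irf5, Irf7, Irf8 and Irf9, of 53647 genes in the count tables. They were chosen by name, with earlier results of these data known, and the similarly named Irf2bp2, which encodes a corepressor that binds IRF2, was left out. Each symbol was matched to its Ensembl gene by the GENCODE annotation. The data are bulk RNA sequencing counts from 4 libraries of mouse primary myotubes, the multinucleated muscle cells that form when cultured myoblasts fuse. The myoblasts were wild type (WT), came from limb muscles of pups 2 to 3 days old and were differentiated in horse serum. EDA-A2 replicates 1 and 2 received EDA-A2, a ligand of the tumour necrosis factor superfamily that binds the receptor EDA2R, at 250 ng/mL for 24 h, control replicates 1 and 2 did not, and all were harvested 72 h after differentiation. The comparison asks which transcripts respond when this receptor is activated in myotubes. The study's methods call its replicates biological in general, but neither they nor the labels say whether these libraries came from separate cultures or how many pups were pooled, so p-values measure only the spread between these libraries, which may be technical.

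IRFs bind interferon-stimulated response elements (ISREs) and related sites in the promoters of interferon and antiviral genes. IRF3, IRF5 and IRF7 wait in the cytoplasm until kinases downstream of nucleic acid sensors phosphorylate them, whereas IRF1 is controlled largely by how much of it is made, since its gene responds to interferon-gamma and to nuclear factor κB (NFκB). IRF9 is the DNA-binding subunit of the complex ISGF3, IRF2 competes with IRF1 for shared sites, and IRF4 and IRF8 act mainly in lymphoid and myeloid cells.

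Counts on genes summed to 29444155 to 29746863 per library. At this depth a count of 0 allows up to 3 counts, or 0.101 to 0.102 CPM of the library's total, a limit that covers counting error only. Myotube RNA was abundant in every library. Myh3, the embryonic myosin heavy chain, had 229884 and 231656 counts in control and 163322 and 158931 in EDA-A2. Myoblast markers were also present, at 423 to 455 CPM in sum, so the libraries need not hold myotubes alone. The control libraries differed from each other in the targets of ISGF3. Of 16 tested targets of ISGF3, 13 (81.2%) were higher in control replicate 1 than in control replicate 2, with a median log2 ratio of 0.43, against 7571 of 15169 genes (49.9%) and a median of -0.00 over all genes. Results that rest on this difference are therefore given with and without control replicate 1.

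Irf1 was the member whose transcript rose, and it about doubled. Its counts were 599 and 651 in control and 1391 and 1316 in EDA-A2. Both EDA-A2 libraries were far above both control libraries, and the members of each pair were close to each other. Scaled to a common effective library size (normalized counts), the means were 637 ± 27.8 in control and 1328 ± 49.6 in EDA-A2 (SD, n = 2 each). The log2 fold change was 1.06 (SE 0.08, 95% interval 0.88 to 1.24), a fold of 2.09 (1.84 to 2.36), and the adjusted p was 2.84e-06 (edgeR quasi-likelihood F test, adjusted by Benjamini and Hochberg over 15173 genes). Irf1 ranked 19th of those genes by p-value and 148th by fold change. Of the 8 members, 6 passed the filter on low counts and 1 of these was called higher, against a background of 2.45% of all genes tested called higher and 4.57% called in either direction. By the same test 0 members were called lower, against 2.13% of all genes, and both members under an unadjusted p of 0.05, Irf1 and Irf2, were higher, where 15.6% of all genes were under it in either direction; the DESeq2 Wald test called the same numbers. In bulk RNA, fewer cells of a type and less RNA per cell cannot be told apart. Without control replicate 1 the log2 fold change of Irf1 was 1.01 with an adjusted p of 0.137, and without control replicate 2 it was 1.10 with an adjusted p of 0.0960, in fits that called 7 and 9 genes of 15173. Without EDA-A2 replicate 1 or 2 Irf1 was still called, with adjusted p of 7.39e-08 and 8.47e-09.

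**Figure D1:**
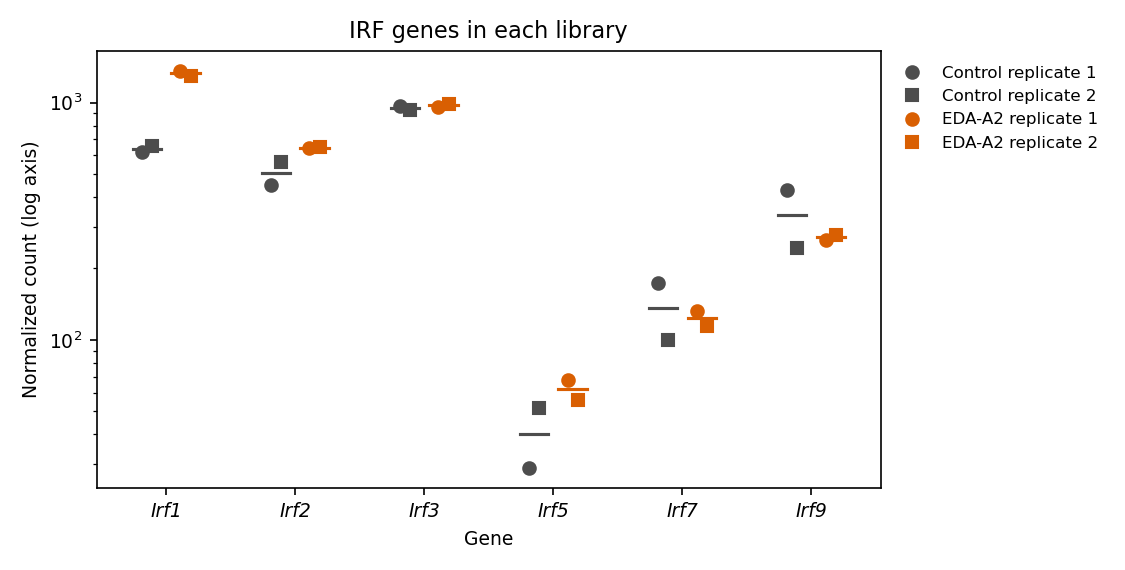
Normalized counts (log axis) of the 6 IRF genes that passed the filter, with 1 point per library, control in grey and EDA-A2 in orange, circles for replicate 1 and squares for replicate 2, and short lines at the mean of each condition. The pairs of Irf1 lie far apart at 617 and 656 against 1363 and 1293, those of Irf3 coincide, and the control points of Irf7 and Irf9 lie on either side of the EDA-A2 points.

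The gene lies at chr11:53660812-53669200 on the plus strand of GRCm39. On the opposite strand the annotation places Gm12216, a long noncoding RNA that shares 619 exonic bases with Irf1, Gm17334, which shares 1467, and Gm74496, which shares 405 and was not analysed here. Gm12216 had 2, 3, 5 and 7 counts and Gm17334 at most 1 in any library. The strand option of the counting is not given in the sources used here, and the part of antisense reads in the count of Irf1 was not tested. Irf1 had 2 promoter windows in RefSeq, and the first is shown because Irf1 was the member called. It holds the 250 bases before the start site (RefSeq, GRCm39, chr11:53660591-53660840, plus strand), of which the last 29 lie in the first exon that GENCODE annotates. Capitals mark a match of the interferon-gamma activated site (GAS, TTCNNNGAA) at -90 to -82 and a match of the κB consensus, bound by NFκB, at -13 to -4:

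Irf1 promoter: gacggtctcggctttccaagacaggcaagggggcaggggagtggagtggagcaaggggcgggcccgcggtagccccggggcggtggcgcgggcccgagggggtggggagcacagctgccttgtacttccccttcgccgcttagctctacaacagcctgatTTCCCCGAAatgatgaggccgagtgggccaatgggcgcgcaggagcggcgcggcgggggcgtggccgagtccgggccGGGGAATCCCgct

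Both strands were searched, and the 2 matches begin 77 bases apart without overlap. The other window of Irf1, chr11:53661049-53661298, held neither motif. Among 32851 promoter windows of the same length, 7.02% held the GAS letters, 7.25% the κB consensus and 0.499% both. All 8 members matched the RefSeq table, with 11 windows in all, and both motifs occurred in windows of 2 members, Irf1 and Irf2. A match describes letters in this window and is not evidence of binding.

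Irf2, the antagonist of Irf1 at many shared sites, had 436 and 558 counts in control and 656 and 659 in EDA-A2. Both EDA-A2 libraries lay above both controls without overlap, and control replicate 1 was the lowest. Normalized counts averaged 506 ± 80.2 in control and 645 ± 3.28 in EDA-A2 (SD, n = 2 each). Its log2 fold change was 0.35 (SE 0.11, 95% interval 0.11 to 0.59), and its edgeR adjusted p of 0.0985 did not pass the threshold of 0.05. It was 0.20 without control replicate 1 and 0.52 without control replicate 2. The size of the difference therefore depended on which control library was kept. Irf2 spans chr8:47192222-47300501 on the plus strand, and the antisense RNA Gm16675, which shares 112 exonic bases with it, had 18, 24, 34 and 22 counts (both control libraries, then both EDA-A2 libraries, each by replicate number).

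Parts of the window before the RefSeq start of Irf2 (GRCm39, plus strand), which lies inside the gene that GENCODE annotates, are shown for comparison with Irf1. In the first part, chr8:47192537-47192566, capitals mark a match of the ISRE core GAAANNGAAA, the letters that IRFs bind, at -241 to -232 and a GAS match at -224 to -216. In the second, chr8:47192756-47192779, capitals mark a κB match at -17 to -8:

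Irf2 first part: gtGAAAATGAAAttgacttTTCCGAGAAat

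Irf2 second part: gggtgggGGGGATTTCCagcctcg

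The ISRE core occurred in 2.98% of all promoter windows, and Irf2 was the 1 member of 8 that held it. Irf8 had 2 GAS matches in the first of its 2 windows, at -171 to -163 and at -153 to -145, and its RNA was not detected. The windows of Irf3, Irf4, Irf5, Irf7 and Irf9 held none of these 3 motifs.

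Irf3, which is present in most cells and is activated by phosphorylation rather than by synthesis, had 936 and 922 counts in control and 979 and 1006 in EDA-A2. On the normalized scale the values were 964 and 930 against 960 and 989, so the conditions overlapped. The log2 fold change was 0.04 (SE 0.08, 95% interval -0.13 to 0.22) with an edgeR adjusted p of 0.888. The interval leaves room for at most 0.22 on the log2 scale, well below the change of Irf1. Irf3 lies at chr7:44647033-44652272 on the plus strand and shares 123 exonic bases with Bcl2l12 and 22 with Scaf1 on the opposite strand. These neighbours had 172, 181, 257 and 235 counts and 2908, 3035, 3128 and 3026 counts in the same order of libraries.

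Irf5, which acts downstream of Toll-like receptors and is best known in macrophages, was low, with 28 and 51 counts in control and 69 and 57 in EDA-A2. The conditions did not overlap, but the controls lay farther apart than the condition means on the log2 scale, with a log2 ratio of -0.83 between control replicates 1 and 2. On the log2 scale the fold change was 0.62 (SE 0.29, 95% interval -0.01 to 1.25) with an edgeR adjusted p of 0.332, and it was 0.26 without control replicate 1 and 1.09 without control replicate 2. Irf5, at chr6:29526276-29541870 on the plus strand, shares 416 exonic bases with Tnpo3, a nuclear import receptor on the opposite strand that had 4416 to 4645 counts per library. With counts this high in Tnpo3, the part of its reads in the count of Irf5 was not tested.

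Altogether 3 members, Irf1, Irf2 and Irf5, had both EDA-A2 libraries above both controls, where 22.8% of all genes tested did, and 0 members had them below both, where 22.2% did. Non-overlap in either direction was found for 45.0% of all genes tested, so with 2 libraries per condition it was common. The median log2 fold change of the 6 members tested was 0.20, beside -0.00 for all genes tested.

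**Figure D2:**
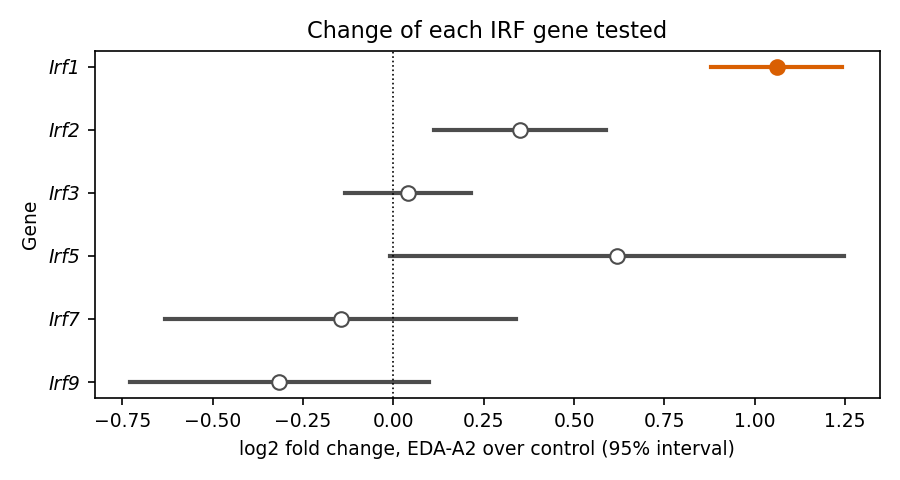
Log2 fold change of EDA-A2 over control (horizontal axis) for the 6 IRF genes tested, with 95% intervals from the edgeR fit, filled orange where the adjusted p passed 0.05 and open grey otherwise. Irf1, at 1.06, is the filled point, the interval of Irf2 lies above 0 without passing the adjusted threshold, and those of the other members include 0.

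Irf7 is the factor that amplifies type I interferon production and is itself induced by interferon. It had 168 and 99 counts in control and 135 and 116 in EDA-A2. Both EDA-A2 libraries fell between the 2 controls. The log2 fold change was -0.15 (SE 0.23, 95% interval -0.63 to 0.34) with an edgeR adjusted p of 0.849. It turned to 0.30 without control replicate 1 and was -0.49 without control replicate 2, so no direction can be given. The 2 controls differed by a log2 ratio of 0.79. Irf7 lies at chr7:140842619-140846398 on the minus strand and shares 63 exonic bases with Phrf1, which had 2015 to 2150 counts per library.

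Irf9, the DNA-binding subunit of ISGF3, followed Irf7. It had 417 and 242 counts in control and 269 and 282 in EDA-A2, again with both EDA-A2 libraries between the controls. Its log2 fold change was -0.32 (SE 0.19, 95% interval -0.73 to 0.10) with an edgeR adjusted p of 0.496, and the log2 ratio of the 2 controls was 0.82. Without control replicate 1 it turned to 0.15, and without control replicate 2 it was -0.67. Irf9, at chr14:55841028-55847812 on the plus strand, shares 282 exonic bases on the same strand with Rnf31, a subunit of a ubiquitin ligase. Rnf31 had 472, 439, 466 and 483 counts in the same order of libraries, and the effect of the shared bases on the count of Irf9 was not tested.

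Irf4, a factor of lymphocyte and plasma cell differentiation, had 0, 1, 1 and 0 counts, and Irf8, which directs monocyte and dendritic cell development, had 0 counts in all 4 libraries. Both were at or below the floor of 3 counts in every library and were not tested. Irf4 is annotated at chr13:30933209-30950959 and Irf8 at chr8:121463096-121485659, both on the plus strand. Markers of the cells that use these factors varied in level. Of 13 macrophage and myeloid markers, C1qa, C1qb and Fcgr1 had 0 counts in all libraries, Ptprc (the pan-leukocyte antigen CD45) had 0, 2, 1 and 1 counts, and Adgre1 had 0, 1, 0 and 0. The summed level of this list was 10.7 and 9.54 CPM in control and 14.8 and 11.4 CPM in EDA-A2. By edgeR 0 of 4 tested markers were called and 2 were under an unadjusted p of 0.05, where 4.57% and 15.6% of all genes tested were. All 4 tested markers had log2 fold changes above 0, with a median of 0.62. Mrc1 had 211, 168, 288 and 203 counts, Cd68 54, 63, 81 and 69, Itgam 18, 18, 39 and 32, and Cd14 11, 17, 30 and 26. Of the markers too low to be tested, Cx3cr1 had 8, 8, 0 and 6 counts and Lyz2 3, 2, 1 and 2, both lower on average in EDA-A2. Csf1r had 3, 1, 8 and 3 and Aif1 0, 0, 0 and 1, both higher on average. The 4 tested markers and these untested ones were named after their values were seen. The part of this list in the rise of Irf1 was not tested. Of 6 dendritic cell markers 5 had 0 counts in all libraries, the exception being Zbtb46 with 266 to 416, and the 9 lymphocyte markers summed to 0.166 to 0.443 CPM. Fibroblast markers summed to 1599 to 1742 CPM, with Lum and Thy1 at 0, endothelial markers to 0.997 to 1.23 CPM and myoblast markers to 423 to 455 CPM. The myotube markers summed to 25457 and 24412 CPM in control and 18651 and 18667 CPM in EDA-A2. Of these 10 markers 4 were called lower, where 2.13% of all genes tested were. Their part in the IRF results was not tested.

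Levels of different genes were compared per exon length, in TPM, the share of the transcript pool that a gene takes once its count is divided by its exon length. This length joins all annotated exons of a gene, 4678 bases for Irf1, 11179 for Irf2 and 3481 for Irf3. Orders, shares and ratios between genes rest on these lengths, and which transcript forms were expressed was not tested. Irf3 was the most abundant member in control at 43.2 and 42.4 TPM, followed by Irf1 at 20.6 and 22.3 TPM. In EDA-A2 Irf3 stood at 46.4 and 46.7 TPM and Irf1 at 49.0 and 45.4 TPM. On the TPM scale Irf1 thus drew level with Irf3, and their order differed between the 2 EDA-A2 libraries. Before division by length Irf1 was above Irf3 in both EDA-A2 libraries, at 46.1 and 43.7 CPM against 32.4 and 33.4 CPM. Irf2 followed at 6.26 and 7.98 TPM in control and 9.67 and 9.52 TPM in EDA-A2. Irf9 had 11.5 and 6.67 TPM in control and 7.64 and 7.85 TPM in EDA-A2, and Irf7 had 7.14 and 4.19 against 5.89 and 4.96 TPM. In control, Irf2, Irf7 and Irf9 overlapped in level and their order differed between the libraries, whereas both EDA-A2 libraries had Irf2 above Irf9 above Irf7. Irf5 was lowest of the members tested, at 0.627 and 1.14 TPM in control and 1.59 and 1.28 TPM in EDA-A2.

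The 8 members summed to 89.3 and 84.6 TPM in control and to 120 and 116 TPM in EDA-A2. Without Irf1 the sums were 68.8 and 62.4 TPM in control and 71.2 and 70.3 TPM in EDA-A2. Most of the increase in the pool was therefore Irf1 transcript, whose share of it went from 23.0% and 26.3% to 40.8% and 39.3%. The share of Irf3 went from 48.3% and 50.1% to 38.6% and 40.3%. The ratio of Irf1 to Irf2 in TPM, activator to antagonist, was 3.28 and 2.79 in control and 5.07 and 4.77 in EDA-A2. The level of this ratio rests on the exon lengths. Before division by length Irf1 had 20.9 and 22.2 CPM in control, and Irf2 had 15.2 and 19.0 CPM. In EDA-A2 these were 46.1 and 43.7 CPM for Irf1 and 21.7 and 21.9 CPM for Irf2. An exact two-sided permutation test of the log2 ratio over the 4 libraries gave p = 0.333, the smallest value it can give with 2 against 2.

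**Figure D3:**
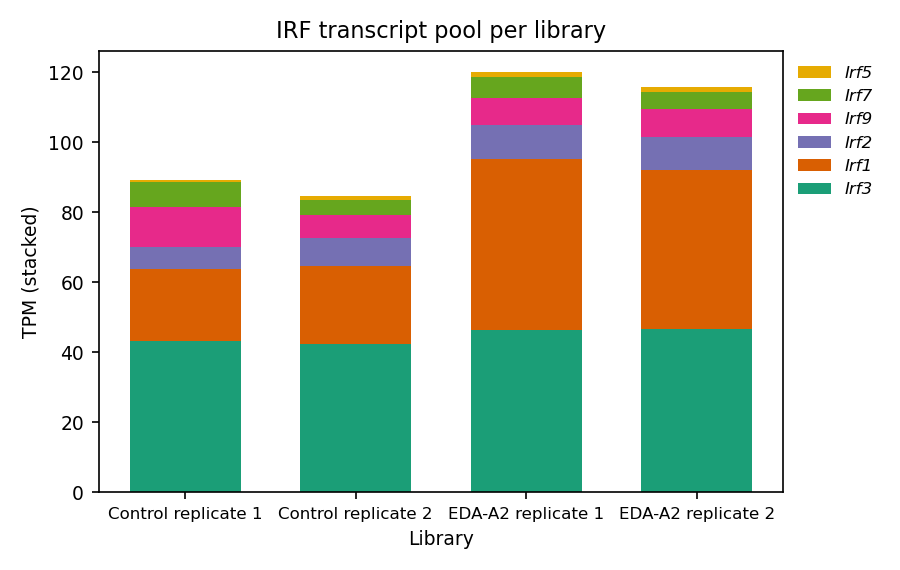
Level of each IRF gene in TPM, stacked, with 1 bar per library and the axis starting at 0; Irf4 and Irf8 are too low to be drawn. The bars of the EDA-A2 libraries reach 120 and 116 against 89.3 and 84.6 in control, and the orange segment of Irf1 accounts for most of the difference.

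The protein-coding genes whose profile over the 4 libraries was nearest to that of Irf1, by Euclidean distance of log2 CPM from the control mean among 13059 genes, were Tnip1, Gbp2 and Sprr1a. Tnip1 encodes a ubiquitin-binding protein that restrains NFκB, and it had 1084 and 1107 normalized counts in control and 2332 and 2375 in EDA-A2, with a distance of 0.103. Gbp2, an interferon-induced guanylate-binding protein, had 68.0 and 78.7 against 169 and 149 (distance 0.119). Sprr1a, a protein of the cornified envelope that is also induced in stressed muscle and nerve, had 15.5 and 16.1 against 37.2 and 31.4 (distance 0.121), and its edgeR adjusted p of 0.0929 did not pass. These genes share the 4 libraries, and their log2 fold changes were 1.10, 1.11 and 1.11. The choice by distance fixed in advance that these values lie close to that of Irf1.

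Upstream of the IRFs, none of the 10 interferon genes listed was detected above the floor at 24 h, and other interferon genes were not examined. Of these 10 genes 8, among them Ifnb1, had 0 counts in all libraries, Ifne had 2, 0, 2 and 0 counts and Ifng 0, 0, 1 and 0. Sensors, adaptors and kinases that act on IRF3, IRF5 and IRF7 included 18 tested genes, of which 4 (22.2%) were called higher and 0 lower. Of all genes tested, 2.45% were called higher and 2.13% lower. The median change of the list was 0.15 on the log2 scale. Traf3, an adaptor of both interferon induction and the noncanonical NFκB pathway, had 1211 and 1256 normalized counts in control and 2730 and 2894 in EDA-A2, a log2 fold change of 1.19 with an edgeR adjusted p of 1.47e-07. The RNA sensors Ifih1 (MDA5) and Rigi rose by 0.73 and 0.61 on the log2 scale, with edgeR adjusted p of 0.00575 and 0.00318, and Tank, a scaffold of the kinase TBK1, rose by 0.35 with 0.0150. Irak1, at 0.00, and the kinase gene Ikbke, at -0.00, had the largest p-values of the list.

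Of 10 genes for interferon receptors, JAK kinases and STAT2, which take part in interferon signalling, 5 (50.0%) were called higher and 0 lower. The shares over all genes tested were 2.45% and 2.13%. The median change of these 10 was 0.33 on the log2 scale. Tyk2, the kinase of the type I receptor, rose from 687 and 693 to 1095 and 1279 normalized counts, by 0.78 on the log2 scale. Ifngr1 and Ifngr2, the chains of the interferon-gamma receptor, rose by 0.72 and 0.50, Jak2 by 0.41 and Ifnar1 by 0.29. Their edgeR adjusted p ranged from 5.7e-05 for Ifngr1 to 0.0411 for Ifnar1. Jak1 (0.05) and Stat2 (-0.07) had the largest p-values.

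Downstream, textbook targets of IRF1 included 18 genes, of which 14 were tested, 6 (42.9%) were called higher and 0 lower. The shares over all genes tested were 2.45% and 2.13%. The median change of the list was 0.43 on the log2 scale. The list is not exclusive to IRF1, since NFκB also acts on several of its genes. The chemokine genes Ccl5 and Cxcl10 rose most in the fit, by 1.65 and 1.61 on the log2 scale. Ccl5 had 39.2 and 34.3 normalized counts in control and 109 and 122 in EDA-A2, and Cxcl10 had 65.9 and 40.3 against 179 and 144. Their edgeR adjusted p was 0.000529 and 0.000724. Gbp2 rose by 1.11, the adhesion molecule gene Vcam1 by 0.53, and B2m, the light chain of class I antigen-presenting molecules, by 0.34. Nos2, the inducible nitric oxide synthase and the sixth gene called, rose by 0.34, from 5538 and 4950 to 6861 and 6373 normalized counts, with the largest edgeR adjusted p of the 6, 0.0158. Il15 (-0.25) and Il7 (0.21) had the largest p-values. Cxcl9, singled out after its values were seen, had 0 and 0 counts in control and 7 and 6 in EDA-A2 and was too low to be tested.

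Textbook targets of ISGF3, the complex that contains IRF9, numbered 21, of which 16 were tested, 3 (18.8%) were called higher and 0 lower. The shares over all genes tested were 2.45% and 2.13%. The median change of the list was 0.20 on the log2 scale, with 11 genes above 0 and 5 below. Rsad2 (viperin) went from 246 and 281 to 492 and 591 normalized counts, a log2 fold change of 1.04 with an edgeR adjusted p of 0.000141. Parp14 rose by 1.13 and Ifit1 by 0.54, with edgeR adjusted p of 0.00569 and 0.0121. Usp18 (0.14) and Bst2 (0.05) had the largest p-values. Other targets followed the pattern of Irf7 and Irf9. Isg15 and Ifi44, named after their values were seen, had 310 and 143 and 201 and 52.4 normalized counts in the controls, and 183 and 212 and 93.1 and 114 in EDA-A2. The summed level of the list was 167 and 134 CPM in control and 169 and 175 CPM in EDA-A2. Without control replicate 1 the median of the list was 0.44 with 14 of 16 genes above 0, and without control replicate 2 it was -0.03 with 8 of 16 above 0. The higher level of ISGF3 targets in control replicate 1 moved with the values of Irf7 and Irf9 there, and its part in their results was not tested.

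**Figure D4:**
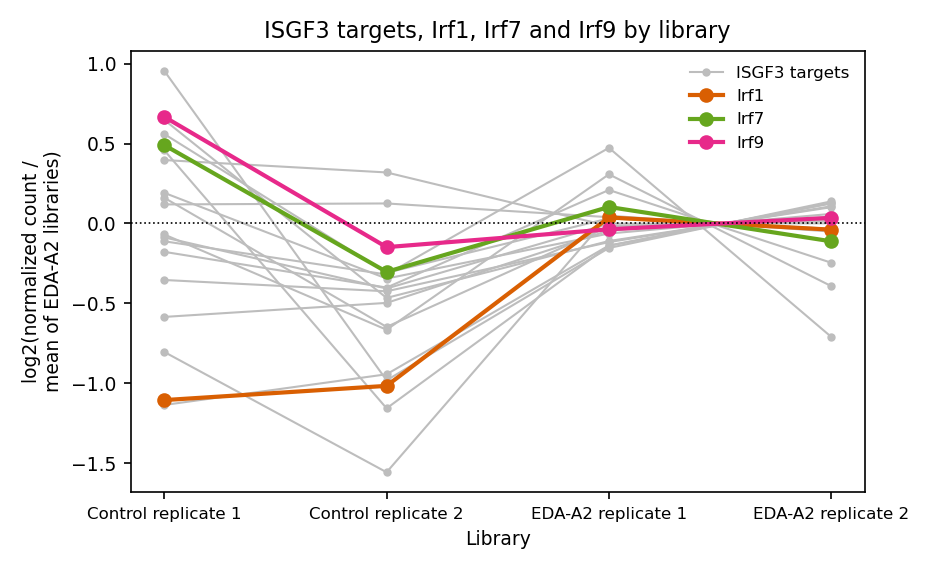
Log2 of normalized count over the mean of the EDA-A2 libraries (vertical axis) in each of the 4 libraries, for Irf1, Irf7, Irf9 and, in grey, the 16 tested targets of ISGF3; lines join the values of 1 gene and imply no order of the libraries. Irf7 and Irf9 lie above 0 in control replicate 1 and below 0 in control replicate 2, as do several ISGF3 targets, while Irf1 lies near -1 in both controls.

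A list of DNA-binding partners of IRFs and IRF2-binding corepressors, Irf2bp2 among them, held 9 genes, of which 5 were tested. Of these 5, 1, Spib, was called higher and 0 lower, where 2.45% and 2.13% of all genes tested were. Spib encodes an ETS factor of B cells and dendritic cells with which IRF4 and IRF8 bind composite sites. It had 0 and 0 counts in control and 19 and 26 in EDA-A2, at least 7.22-fold higher against the floor of 3 counts per library. Its edgeR adjusted p was 0.000883, but it passed the filter on low counts only through the EDA-A2 libraries, where it was high. A filter of 10 counts in each library removed it. IRF4 and IRF8, its usual partners, were not detected, and its relative Spi1 had 1, 0, 0 and 1 counts. The DESeq2 Wald test did not call Spib. The IRF2-binding corepressor gene Irf2bpl, at -0.00 on the log2 scale, and Batf3, a partner of IRF8, at -0.31, had the largest p-values. Of 8 negative regulators of interferon signalling 0 were called by edgeR or by the DESeq2 Wald test, with 1 and 0 of them under an unadjusted p of 0.05. With edgeR, 4.57% of all genes tested were called and 15.6% were under that unadjusted p. The median log2 fold change of these regulators was -0.01. Socs3 (-0.00) and Pias1 (-0.02) had the largest p-values.

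NFκB subunits, whose proteins bind the κB site, numbered 5, and 2 were called higher, where 2.45% of all genes tested were. Nfkb2, the precursor of p52, had 1008 and 1005 normalized counts in control and 3660 and 3808 in EDA-A2, a log2 fold change of 1.89 with an edgeR adjusted p of 9.46e-10. Relb, the partner of p52, rose by 0.99 with an edgeR adjusted p of 3.1e-05. Nfkb1 (0.10) and Rel (0.27) had the largest p-values. Without control replicate 1 or without control replicate 2, the counts of genes called fell to 0 in every list of this paragraph and the preceding ones except NFκB subunits, where 1 was called. Such a fit has a single control library, which is assumed to vary like the others.

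**Figure D5:**
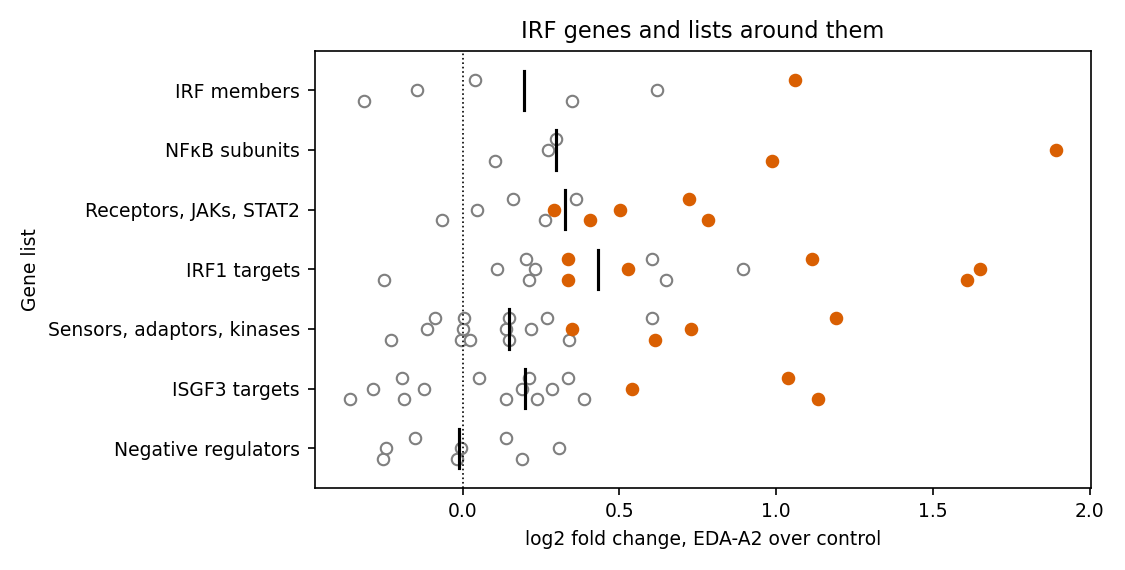
Log2 fold change of EDA-A2 over control (horizontal axis) for the tested genes of each list drawn, 1 point per gene, filled orange where the adjusted p passed 0.05 in edgeR and open grey otherwise, with a black bar at the median of the list. The partners of IRFs and the cell type markers are not drawn. Filled points lie to the right of 0 in every list drawn that has any, and the medians drawn run from -0.01 for negative regulators to 0.43 for IRF1 targets.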

How the data were processed

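RNA from 4 libraries of mouse primary myotubes, 2 control and 2 EDA-A2, was sequenced from a stranded mRNA kit. Per the study's methods and the submitters' processing notes, the authors checked reads with FastQC 0.11.9 and MultiQC 1.12, trimmed them with Trim Galore 0.6.5, mapped them to GRCm39 with STAR 2.7.3a and counted them with HTSeq 0.11.1. The deposited values are raw counts for each Ensembl gene, neither normalized nor pooled over replicates. The annotation release and the strand option are not given in the sources used here. HTSeq's summary lines stayed out of library sizes and tests: 6.68% to 7.40% of pairs fell outside genes, 0.946% to 0.986% were ambiguous and 4.56% to 4.76% did not map uniquely.

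GENCODE M39 matched 52610 of 53647 genes and gave symbols, positions and exon lengths for TPM. Levels in CPM and normalized counts use library sizes adjusted by TMM factors. Counts were tested in R 4.3.3 with edgeR 4.0.16 (TMM factors 0.972 to 1.03, filterByExpr with a minimum count of 10 and total of 15, glmQLFit, glmQLFTest, Benjamini-Hochberg, threshold 0.05). Standard errors are the log2 fold change over the square root of F. The members and gene lists were chosen with earlier results of these data known, and 1 listed gene is not reported here. Named genes were every member, its neighbours in the annotation, the genes called in each list (at most 5, by p) with the 2 of largest p, and the 3 genes nearest in profile to a member called. Nos2, Ifnb1, Ifne, Ifng, Spi1, Irf2bp2 and the cell type markers, Myh3 among them, were named outside this rule. Any other gene named otherwise is said to be so. Promoter windows came from a RefSeq table. The alternatives were other scaling factors, other filters, the DESeq2 1.42.0 Wald test, a replicate block and leaving out each library. The steps were tested on simulated counts.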

Additional observations from a re-analysis of the deposited data

How the results depend on the processing

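The log2 fold change of Irf1 was 1.06 to 1.12 with an edgeR or DESeq2 adjusted p of at most 0.0104 under the 7 alternatives that keep all libraries, and 1.01 to 1.10 when 1 library was left out. Without control replicate 1 or 2 the adjusted p of Irf1 was 0.137 and 0.0960, in fits that called 7 and 9 genes, whereas the fits without an EDA-A2 library called 351 and 416, and the cause was not tested. Leaving out 1 library gave 0 to 1 IRF genes called and 7 to 416 of all genes. It gave 0 to 3 sensors, adaptors and kinases, 0 to 4 receptor, JAK and STAT2 genes, 0 to 5 IRF1 targets, 0 to 2 ISGF3 targets, 0 to 1 partners and 1 to 2 NFκB subunits. Without control replicate 1 the log2 fold changes turned to 0.30 for Irf7 and 0.15 for Irf9, neither of them called, and over the 4 fits they ran from -0.49 to 0.30 and from -0.67 to 0.15. With no filter beyond 1 count in total, 86 genes were called in place of 694, with 1 sensor, adaptor or kinase, 1 receptor, JAK or STAT2 gene, 1 IRF1 target, 0 ISGF3 targets (5 under an unadjusted edgeR p of 0.05) and 0 partners (1 under it), and the cause was not tested. Spib was also not called under a filter of 10 counts in each library, which removes it, or by the DESeq2 Wald test, so 0 partners were called. Total-count scaling moved the median of all genes to 0.05 on the log2 scale.

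The replicate numbers are shared between the conditions, but no source says that they mark a shared culture, so they were not used to pair the samples. Same-numbered libraries deviated together with a correlation of 0.06, which with 2 libraries per condition cannot exclude a shared culture. With a replicate block 1066 genes and 2 IRF genes were called. The second was Irf2, at 0.36 with an edgeR adjusted p of 0.0310. The block also called 4 ISGF3 targets, 3 higher and 1 lower. Negative regulators had 0 genes called under each alternative. Interferon ligands had 0 genes tested, so none could be called, except with no filter beyond 1 count in total. There 2 were tested and 0 called. Leaving out a control library moved the log2 fold change of Irf5 between 0.26 and 1.09, so the depth and the 2 libraries per condition did not settle its size.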
